A study of Homo sapiens with 6 samples.

Results

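miR-199 and miR-214 are miRNAs of mesenchymal cells, and their 6 mature forms (hsa-miR-199a-5p, hsa-miR-199a-3p, hsa-miR-199b-5p, hsa-miR-199b-3p, hsa-miR-214-3p and hsa-miR-214-5p, written without the species prefix from here on) were followed here in Panc-1 cells. They were found by name among the 2588 miRNA names on the 2565 miRNA probes of the array, and lay on 5 probes, because miR-199a-3p and miR-199b-3p shared 1 probe. Each probe had 1 spot per array. Panc-1 is an established cell line from a human pancreatic ductal adenocarcinoma, and it was the only line on the arrays. RNA from cells given no TGF-β was on 3 arrays (control), and RNA from cells kept with TGF-β at 10 ng/mL for 72 h was on 3 more. TGF-β is a secreted cytokine that was used in the study to induce the epithelial–mesenchymal transition (EMT). The question here was whether the miR-199 and miR-214 forms were present in these cells and whether their levels differed after TGF-β. The labels name no slide, but the codes of the deposited arrays differ between the groups in the way of 1 slide per group, and a difference of slide then cannot be told apart from one of treatment. The labels do not say whether the arrays of a group came from separate cultures, and the p-values measure only the spread between these arrays, which may be technical.

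A miRNA is cut from a hairpin precursor that yields a 5p arm and a 3p arm, and its seed, bases 2 to 8, pairs with target mRNAs. miR-199a and miR-214 are made from DNM3OS, a long non-coding RNA transcribed from the strand opposite to the dynamin gene DNM3. DNM3OS is known to be activated by the EMT transcription factor TWIST1. They are typical of fibroblasts, smooth muscle and other connective tissue cells, and in pancreatic tumors they are known from the activated stellate cells of the stroma. miR-199a-5p is known as a miRNA raised by TGF-β in lung fibroblasts, where it represses caveolin-1. miR-199a-3p is known to repress MET and mTOR, and miR-214-3p to repress EZH2.

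In GRCh38.p14, MIR199A2 lies on chromosome 1 from 172144535 to 172144644 and MIR214 from 172138798 to 172138907, both on the minus strand. Both are inside the interval of DNM3OS (chromosome 1, 172136879 to 172144835, minus strand) and 5627 bases apart, and the whole interval lies inside DNM3 (171841498 to 172418466, plus strand). The further copies are also antisense to dynamin genes. MIR199A1 is on chromosome 19 from 10817426 to 10817496 inside DNM2, and MIR199B is on chromosome 9 from 128244721 to 128244830 inside DNM1. The gene table used gives intervals without exons. The array files give no coordinates.

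**Figure D1:**
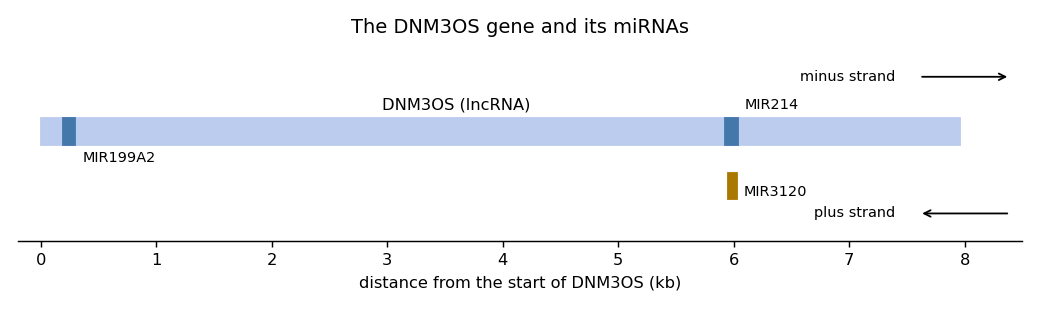
The DNM3OS gene drawn from its start, with the distance in kb on the horizontal axis. The long bar is DNM3OS, the short bars are MIR199A2 and MIR214 on its own strand, 5627 bases apart, and the bar beneath is MIR3120 on the opposite strand, all 81 bases of which overlap MIR214.

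The mature sequences are shown because they decide which copies a probe can tell apart. They were taken from RefSeq (GRCh38.p14) for 5 of the 6 names, and the seed is in capitals. miR-199b-5p had no entry.
miR-199a-5p: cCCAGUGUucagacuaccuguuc
miR-199a-3p: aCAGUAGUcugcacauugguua
miR-199b-3p: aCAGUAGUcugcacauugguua
miR-214-3p: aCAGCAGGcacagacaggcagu
miR-214-5p: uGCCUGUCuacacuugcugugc

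miR-199a-3p and miR-199b-3p were identical at 22 of 22 positions, so that their shared probe cannot separate the output of MIR199A1, MIR199A2 and MIR199B. miR-199a-5p has the same sequence from MIR199A1 and MIR199A2, and its probe cannot separate chromosome 19 from chromosome 1. The miR-214 arms and miR-199b-5p each come from a single gene. Without a sequence for miR-199b-5p, whether its probe can be told apart from that of miR-199a-5p was not checked. The 3p seeds of miR-199a and miR-214 differ, although both begin with the same letters.

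The genes of miR-214 and of miR-3120 overlap on opposite strands, and their mature arms are complementary where they overlap. These arms are shown because RNA of either strand comes from the same stretch of DNA (seed in capitals).
miR-3120-5p: cCUGUCUGugccugcuguaca
miR-3120-3p: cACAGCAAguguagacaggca
The overlap was 18 bases for miR-214-3p with miR-3120-5p and 21 bases for miR-214-5p with miR-3120-3p, complementary throughout.

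The array was read in 1 colour, and the files gave the median intensity of each spot without normalization. A spot was counted as detected where its signal exceeded the mean of the 320 blank spots of its array by 2 SD, with 5% of the blanks left out at each end. These limits lay between 19.5 and 22.8 intensity units, and 1531 to 1787 miRNAs were detected per array, the most on TGF-β replicate 2. Of the 30 readings of the miR-199 and miR-214 probes, 22 were above the limit, 11 of 15 in the controls and 11 of 15 after TGF-β. A probe was tested where all arrays of 1 group or of both detected it, which held for 1457 miRNAs and for 3 of the 5 probes.

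miR-214-3p, the guide strand of miR-214, was the only one of these miRNAs that stood clear of the blank and negative control spots on every array. Its signals were 28.8, 27.9 and 32.1 units in the controls and 28.7, 29.2 and 30.4 units after TGF-β. In SDs of the blank spots, they exceeded the blank mean by 14.1 to 19.8, so that 1 SD of the blanks came to 5.06% to 7.09% of the signal above background. The local background beside its spot was 25.8, 22.9 and 20.5 units in the controls and 18.8, 18.8 and 19.98 units after TGF-β, so that its signal was least above its surroundings on control replicates 1 and 2. Its opposite arm miR-214-5p was not detected on any array. The signals of miR-214-5p were 18.9, 19.6 and 21.98 units in the controls and 19.6, 19.2 and 20.4 units after TGF-β. They lay from -0.68 to 1.05 SDs relative to the blank mean, all below the limits, and no fold change is given for this arm.

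The 3 miR-199 probes were close to the detection limit. miR-199a-5p gave 19.9, 21.9 and 23.3 units in the controls and 20.8, 21.1 and 22.6 units after TGF-β, which was 2.09 to 4.43 SDs above the blank mean. It was above the limit on all 6 arrays, by as little as 0.056 units on TGF-β replicate 1. miR-199b-5p, the 5p arm made from MIR199B, gave 20.5, 21.99 and 24.7 units in the controls and 21.6, 22.8 and 23.1 units after TGF-β. These were 3.23 to 7.71 SDs above the blank mean, highest on TGF-β replicate 2. The shared 3p probe gave 20.5, 20.3 and 24.1 units in the controls and 20.5, 22.01 and 22.96 units after TGF-β. It was above the limit on 4 of 6 arrays and missed it on control replicate 2 by 0.053 units and on TGF-β replicate 1 by 0.23 units. It was therefore not among the tested miRNAs, since each group lacked it on 1 array. On TGF-β replicate 1, the local background beside the spot (23.3 units) was above the signal of the spot itself.

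The arrays also carried 32 negative control spots under 3 names, whose sequences were not given in the files used here. Many of these spots passed the same detection limit, 16 to 24 of 32 per array, compared with 5.63% to 7.5% of the blank spots. The 16 spots named Negative Control 1 had medians of 3.47 to 4.82 SDs above the blank mean on the 6 arrays, and the highest negative control spot of an array was 6.23 to 9.26 SDs above it. miR-214-3p was above every negative control spot on 6 of 6 arrays. miR-199b-5p was above all of them on 1 array, TGF-β replicate 2, and miR-199a-5p and the shared 3p probe on none. miR-199a-5p exceeded the median of Negative Control 1 on 2 of 6 arrays, the shared 3p probe on 2 and miR-199b-5p on 3. When a signal above every negative control spot was required in place of the blank limit, a rule chosen after the values were seen, 1 of the 5 probes was detected, miR-214-3p. Apart from miR-199b-5p on that 1 array, the signals of the miR-199 probes thus lay within the range of the negative controls, and presence of the miR-199 forms was not measurable beyond it.

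**Figure D2:**
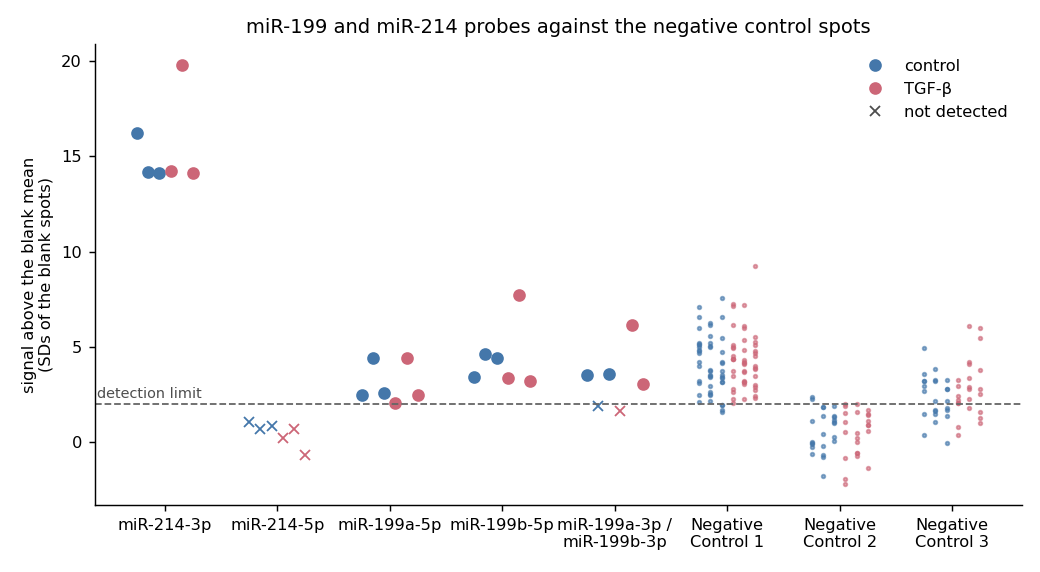
Signal above the blank mean in SDs of the blank spots for the 5 probes (large points, 1 per array, crosses where not detected) and for the negative control spots (small points), control arrays in blue and TGF-β arrays in red. miR-214-3p sits between 14.1 and 19.8 SDs, above every negative control spot, while the miR-199 probes overlap the negative controls and miR-214-5p lies below the detection limit of 2 SDs.

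For the comparison of TGF-β with control, the blank mean was subtracted, values under 1 unit were set to 1, and log2 values were quantile normalized over all miRNA probes and tested with limma, and p-values were adjusted (Benjamini-Hochberg) across the 1457 miRNAs. None of the 3 tested miRNAs differed at an adjusted p under 0.05. Over all detected miRNAs, 58 passed (3.98%), 20 of them downward (1.37%) and 38 upward (2.61%). The split depended on the scaling, with 12 downward and 37 upward under median scaling, 8 and 27 without normalization between arrays, and 4 and 27 in the deposited values. Read against that share, 0 of 3 is not a result about these miRNAs. Control and TGF-β arrays overlapped for 3 of 3, compared with 18.9% of all detected miRNAs whose groups did not overlap. With 3 arrays against 3, the smallest p of the exact permutation test is 0.1, 2-sided. In these bulk samples, fewer cells with a miRNA and less of it per cell cannot be told apart.

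The level of miR-214-3p was nearly equal in the 2 groups. Its normalized log2 levels were 3.49, 3.23 and 3.20 in the controls and 3.33, 3.32 and 3.25 after TGF-β. The TGF-β arrays fell within the range of the control arrays. The means were 3.30 ± 0.16 (SD, n = 3) and 3.30 ± 0.044 (SD, n = 3). The log2 difference was -0.0029 (standard error 0.14, adjusted p = 0.997 from limma), with a 95% interval from -0.31 to 0.30. This corresponds to a fold of 0.998, with an interval from 0.808 to 1.23. The exact permutation test gave p = 1. A smaller absolute difference was found for 1.37% of the detected miRNAs. The authors' processed values, in which the same background was subtracted and each array was scaled to a median of 25, were 39.3 ± 4.16 (SD, n = 3) for the controls against 42.3 ± 6.66 (SD, n = 3) after TGF-β. Their ratio was 1.08 (exact permutation test, p = 0.6). It was above 1 through TGF-β replicate 2, with a value of 50, whereas the other TGF-β arrays had 39 and 38.

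The levels of the miR-199 5p arms varied more between arrays. For miR-199a-5p, the normalized log2 levels were 0.93, 1.53 and 0.76 in the controls and 0.54, 1.10 and 0.76 after TGF-β. The highest level was that of control replicate 2 and the lowest that of TGF-β replicate 1, and the groups overlapped. The means were 1.07 ± 0.41 (SD, n = 3) and 0.80 ± 0.28 (SD, n = 3). The log2 difference was -0.27 (standard error 0.33, adjusted p = 0.816 from limma), with a 95% interval from -1.01 to 0.47 or from 0.498-fold to 1.38-fold. Without control replicate 2 the difference was -0.040. The exact permutation test gave p = 0.5. For miR-199b-5p, the levels were 1.34, 1.59 and 1.59 in the controls and 1.25, 1.92 and 1.15 after TGF-β. The TGF-β arrays had both the highest and the lowest values. The means were 1.505 ± 0.146 (SD, n = 3) and 1.44 ± 0.42 (SD, n = 3). The log2 difference was -0.068 (standard error 0.27, adjusted p = 0.969 from limma), with a 95% interval from -0.67 to 0.53 or from 0.630-fold to 1.44-fold, and the exact permutation test gave p = 0.8. Without TGF-β replicate 2 it was -0.31.

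The shared 3p probe had log2 levels of 1.37, 0.32 and 1.25 in the controls and 0.17, 1.59 and 1.07 after TGF-β. The low value of each group was on the array on which the probe was not detected. The means were 0.98 ± 0.57 (SD, n = 3) and 0.95 ± 0.72 (SD, n = 3), and the difference of -0.035 was far smaller than either SD (exact permutation test, p = 1). In the authors' processed values, miR-199a-5p had 8.67 ± 2.89 (SD, n = 3) in the controls and 8 ± 2.65 (SD, n = 3) after TGF-β, and miR-199b-5p 10.7 ± 1.53 (SD, n = 3) and 12.3 ± 5.77 (SD, n = 3). The shared 3p probe had a value on 2 arrays of each group, with means of 9 and 11.5, and miR-214-5p had none. The exact permutation test on these values gave p = 0.7 for miR-199a-5p and p = 1 for miR-199b-5p.

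**Figure D3:**
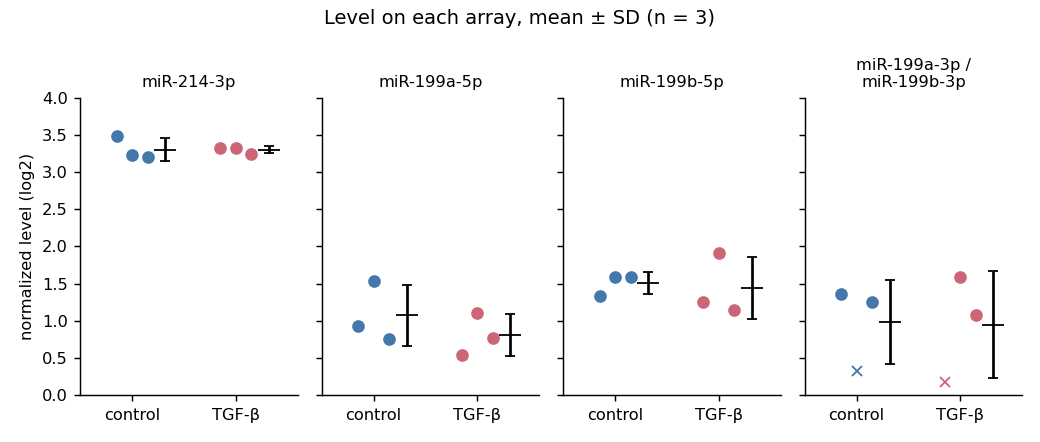
Normalized log2 level of the 4 probes detected on at least 1 array, for each control and TGF-β array (points, crosses where not detected) with the mean ± SD of each group (n = 3). The 3 TGF-β values of miR-214-3p lie within the range of the control values, and the groups overlap for the miR-199 probes as well.

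The 5p arms of miR-199a and miR-199b were also compared within each array, which leaves out what acts on both probes of an array alike. Both probes gave signals in the range of the negative controls, with the 1 exception given above, so that the values are a description of those signals. The log2 level of miR-199a-5p minus that of miR-199b-5p was -0.41, -0.058 and -0.83 in the controls and -0.71, -0.81 and -0.38 after TGF-β. The groups overlapped, and the change between them of -0.20 did not differ from 0 beyond the spread of the arrays (exact permutation test, p = 0.7). It was -0.015 without control replicate 2, -0.40 without control replicate 3, -0.11 without TGF-β replicate 2 and -0.32 without TGF-β replicate 3. The other planned pairs set miR-199a-5p or miR-214-3p against the shared 3p probe and miR-214-3p against miR-214-5p. They were not run because 1 of each pair was not detected by the rule.

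The precision of these comparisons followed the level. Among the 472 detected miRNAs with a mean log2 level below 2, where the miR-199 5p arms lay, the median standard error was 0.31, 3 were called (0.636%) and the smallest called difference was 1.39. Among the 474 miRNAs with a level from 2 to 4, where miR-214-3p lay, the median standard error was 0.18, 11 were called (2.32%) and the smallest called difference was 0.69. The interval of miR-214-3p thus spans a narrower range of folds than those of the miR-199 5p arms.

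**Figure D4:**
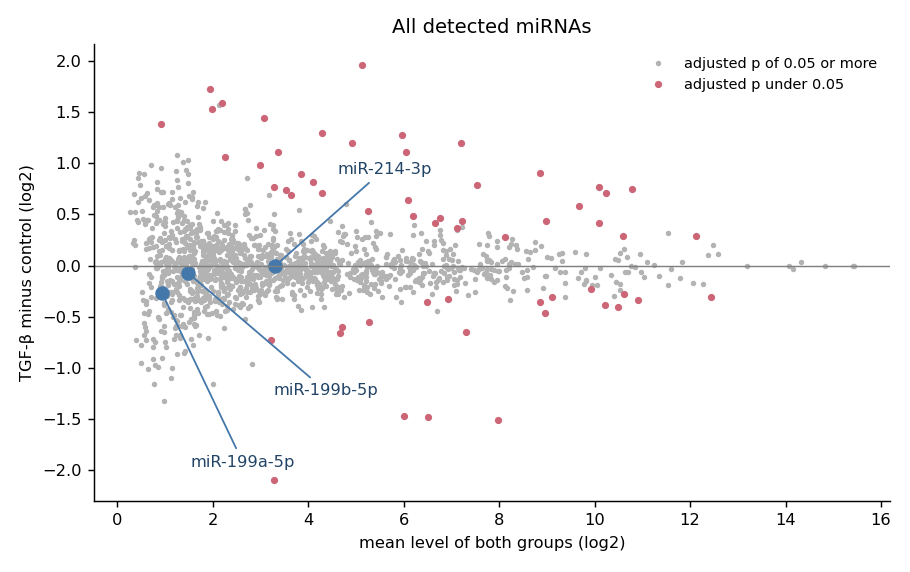
Log2 difference between TGF-β and control arrays against the mean log2 level for the 1457 detected miRNAs, with those at an adjusted p under 0.05 in red and miR-214-3p, miR-199a-5p and miR-199b-5p in blue. The spread of the differences narrows as the level rises, and the 3 blue points lie inside the grey cloud.

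Other miRNAs that share a seed with these forms were looked up by sequence, since they can act on the same targets, and 3 were on the array. They are shown with the seed in capitals, miR-3619-5p and miR-761 for the seed of miR-214-3p and miR-3129-5p for that of miR-199a-3p.
miR-3619-5p: uCAGCAGGcaggcuggugcagc
miR-761: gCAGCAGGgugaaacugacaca
miR-3129-5p: gCAGUAGUguagagauugguuu
miR-3619-5p matched miR-214-3p at 13 of 22 positions, was detected on all 6 arrays at 4.69 to 8.296 SDs above the blank mean, and had a log2 difference of -0.0019 (limma, standard error 0.22, adjusted p = 1), with a 95% interval from -0.50 to 0.49. Its signal was below the highest negative control spot on control replicates 1 and 3 and TGF-β replicate 3, and above it on the other arrays. miR-761, which also matched at 13 of 22 positions, was detected on 1 array. miR-3129-5p matched miR-199a-3p at 16 of 22 positions and was detected on none.

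miRNAs encoded inside the same dynamin genes were read as neighbours, and no host transcript was measured on these miRNA arrays. RefSeq places 5 further miRNA genes there. MIR4748 in DNM2 had no mature entry, and the others gave 6 mature forms on the array, of which 5 were tested. At the 3.98% called among all detected miRNAs, the 0 of 5 called here is not a result about these loci. From the strand opposite to MIR214, miR-3120-3p was detected on 3 control arrays and 1 TGF-β array. Its log2 levels averaged 0.97 and 0.24 (limma, adjusted p = 0.439). It passed the filter only through the controls, which favours a lower mean after TGF-β, and 1 of its TGF-β values was at the floor, so that no difference is read from these means. Its signals of 1.51 to 3.39 SDs were also in the range of the negative controls. miR-3120-5p was detected on 1 control array. In the DNM1 locus, miR-3154, whose gene lies 116 bases from MIR199B on the same strand, was far above the background at 123 to 211 SDs, with a log2 difference of -0.14 (standard error 0.089, adjusted p = 0.560). In DNM2, miR-638, whose gene is on the strand opposite to MIR199A1, gave at least 89.8 SDs and a log2 difference of -0.088 (standard error 0.093, adjusted p = 0.767). miR-6793-5p and miR-6793-3p from the same gene had log2 differences of 0.031 and -0.070 (standard errors 0.27 and 0.41, adjusted p of 0.987 and 0.982 from limma). Their signals of 3.16 to 5.69 and 2.36 to 4.74 SDs were in the range of the negative controls, so that no difference is read.

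Other miRNAs that are usual in fibroblasts and related cells were taken as a list of 17, of which 15 were tested. Of these, 3 rose and 1 fell, compared with 2.61% and 1.37% of all detected miRNAs. The share called grows with the level, and all 4 were among the 6 list members with a mean log2 level above 8, where 17.0% of all detected miRNAs were called. The median log2 difference was 0.20, compared with -0.013 for all detected miRNAs. The groups of 11 of the 15 did not overlap, compared with 18.9% of all detected miRNAs. That share was not computed by level. Of the 15, 6 had a mean log2 level from 4 to 8 and 6 above 8, where the median standard errors were smaller (0.11 and 0.069). No excess is therefore read from the 11. The 3 that rose were miR-100-5p (1.68-fold, adjusted p = 1.03e-05 from limma), miR-125b-5p (1.70-fold, adjusted p = 0.000132) and miR-99a-5p (1.63-fold, adjusted p = 1.03e-05), which come from related clusters and are abundant in many mesenchymal cells. miR-10b-5p, known to be induced by TWIST1, fell to 0.768-fold (adjusted p = 0.00294). miR-143-3p, a smooth muscle and fibroblast miRNA, had groups that did not overlap, but its adjusted p was 0.0931. Its lowest signal, 1.46 units above the blank mean, was in the range of the negative controls, and no size of change is read for it. A list of 15 miRNAs known to rise with TGF-β in other cells was tested in full, and of these 3 rose and 1 fell, compared with the same 2.61% and 1.37%. Of the 7 with a mean log2 level above 8, 2 were called, and of the 6 from 4 to 8, 2 were called, where the shares of all detected miRNAs were 17.0% and 6.27%. The median log2 difference was 0.13, compared with -0.013 over all detected miRNAs. Those that rose were miR-181a-5p (2.29-fold, adjusted p = 5.72e-06), miR-181b-5p (2.42-fold, adjusted p = 5.9e-06) and miR-23a-3p (1.23-fold, adjusted p = 0.00483), and the one that fell was again miR-10b-5p. When the local background, the normexp correction and an offset of 50 replaced the subtraction of the blank mean together, 0 of all miRNAs passed in limma (34 at an unadjusted p under 0.05), so that none of the calls named here was made.

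**Figure D5:**
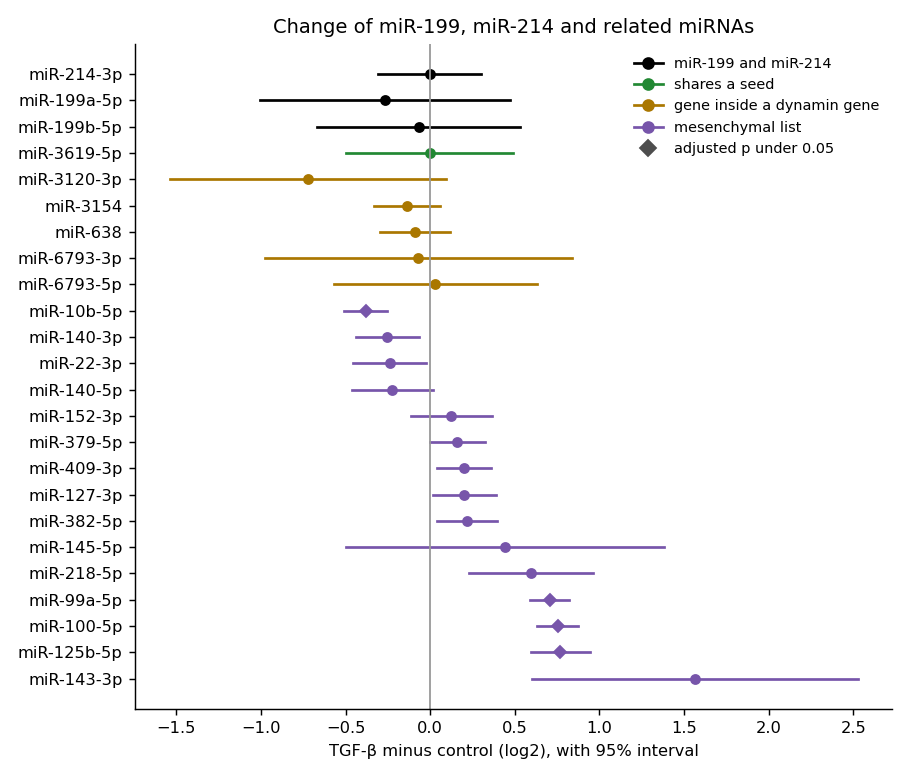
Log2 difference between TGF-β and control arrays with its 95% interval for the tested miR-199 and miR-214 forms, for miRNAs that share a seed, for miRNAs inside the dynamin genes and for the mesenchymal list, with diamonds for an adjusted p under 0.05. The interval of miR-214-3p runs from -0.31 to 0.30, whereas miR-100-5p, miR-125b-5p and miR-99a-5p lie above 0 and miR-10b-5p below it.

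Markers of the labelled cell type were also read, with detection again by the blank limit, which many negative control spots also passed. Of 10 epithelial miRNAs, 5 were detected on all 6 arrays, among them miR-200a-3p and miR-200b-3p, which hold cells in the epithelial state. miR-141-3p was detected on no array, and miR-200c-3p, miR-205-5p and miR-375 on 1 each. The summed signal of the epithelial list above background was 82.8 to 124 units in the controls and 82.9 to 106 units after TGF-β, and 0 of its 5 tested members were called. Within this sum, miR-192-5p spanned 31.2 to 47.2 units and miR-194-5p 33.3 to 52.5 units. The 2 miR-200 forms were far lower, with 3.21 to 7.25 units for miR-200a-3p and 6.07 to 9.65 units for miR-200b-3p. Of 7 mesenchymal markers, which include the miR-199 and miR-214 forms, 4 passed that limit on all arrays, miR-199a-5p and miR-199b-5p among them, and none was called, with sums of 18.9 to 26.0 and 20.0 to 39.2 units. Within that list, miR-143-3p spanned 1.46 to 16.5 units above background, while the tested miR-199 and miR-214 forms had the differences near or below 0 given above. Of all detected miRNAs, 3.98% were called. At that share, 0 called of the 5 tested epithelial and the 5 tested mesenchymal markers is not a result about these markers. Of 7 blood cell markers, 3 were detected on all arrays, with sums of 33.8 to 44.5 and 33.4 to 38.9 units. Of 4 acinar markers, only miR-148a-3p was detected on all arrays, and miR-217 and miR-216b-5p were detected on none. The 2 arms of the endothelial miR-126 were detected on all arrays, with sums of 137 to 173 and 111 to 128 units, and miR-126-3p fell to 0.799-fold (adjusted p = 0.0411 from limma). The part of other cell types in the miR-199 and miR-214 values was not tested.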

How the data were processed

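Panc-1 RNA was labeled with Cy5 and hybridized to 6 one-colour 3D-Gene miRNA arrays. The authors deposited the scanner intensity of each spot with its local background, linear and not normalized, and a table of processed intensities. That table was rebuilt to within rounding as the signal minus the trimmed mean of the blank spots, scaled to a median of 25 over detected miRNAs. Software and genome build were not given in the sources used here. R 4.3.3 with limma 3.58.1 (lmFit, eBayes with an intensity trend) and Python 3.11.15 with matplotlib 3.10.9 were used. Flagged spots (3 miRNA spots over the 6 arrays) were set as missing. The blank-spot background was preferred to the local background because, over the spots above 200 units, the local background divided by the signal had a median of 0.434 to 0.990 on the 6 arrays. The number of arrays limits the precision. The procedure was tested on simulated data. The miRNAs, lists, related miRNAs and tests were chosen with earlier results of these data known. Named miRNAs were all miR-199 and miR-214 forms, seed sharers, miRNAs inside the dynamin genes or within 10 kb, called list members or otherwise the extremes of a list, and the 3 miRNAs most like miR-214-3p. miR-143-3p was named after its values were seen, and cell type markers such as miR-200a-3p and miR-200b-3p were named outside this rule. Alternatives changed the background, normalization, floor, test, filter and block, or left out an array. The replicate numbers did not pair the arrays: same-numbered arrays had correlated deviations of 0.13, 0.11 and -0.027.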

Additional observations from a re-analysis of the deposited data

How the results depend on the processing

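Of 24 alternatives, all 24 gave an adjusted p for miR-214-3p, 23 for miR-199b-5p, 22 for miR-199a-5p and 4 for the shared 3p probe, and none of these p-values was under 0.05 (lowest 0.644). No adjusted p is given for miR-214-5p, which no array detected. In the 15 alternatives that changed its value, miR-199a-5p ran from -0.43 to -0.013. The latter was with normexp and an offset of 50, where its standard error was 0.018. This error was 0.036 with normexp on the blank spots and 0.033 without background correction, against 0.33 in the main setting. An added offset or a background left in compresses log2 differences, so that values under these 3 settings are not on the main scale. miR-214-3p was above 0 with normexp on the local background and an offset of 50 (0.048) and in the deposited values (0.10), and miR-199b-5p in the deposited values (0.12), where the median of all detected miRNAs was itself 0.11. The shared 3p probe was above 0 with normexp on the blank spots (0.0014), without background correction (0.00034), with median scaling (0.0047), with a floor at the detection limit (0.016) and in the deposited values (0.28). When arrays were left out singly, the differences ran from -0.057 to 0.086 for miR-214-3p, from -0.43 to -0.040 for miR-199a-5p, from -0.31 to 0.078 for miR-199b-5p and from -0.37 to 0.35 for the shared 3p probe. With the replicate number as a block, 60 miRNAs were called, the adjusted p was 0.997, 0.807 and 0.962 for miR-214-3p, miR-199a-5p and miR-199b-5p, and no call of theirs changed. The count of 58 called miRNAs was 0 in limma with normexp on the local background and an offset of 50, which changed the background, the method and the offset together, where 34 had an unadjusted p under 0.05. It was 35 without normalization between arrays, 31 in the deposited values, 32 without the trend, 17 with the methods' t-test and 19 with no filter. It ran from 25 (without TGF-β replicate 2) to 51 with each array left out, being 35 without control replicate 2 and 33 without TGF-β replicate 3. The number of detected probes was 1 with the negative control limit, 2 with 3 SD, 4 with the local background, and 3 to 4 with each array left out. The causes were not tested. Signal over background limits what can be said of the miR-199 forms.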

Other observations

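Among the 1282 miRNAs detected on all 6 arrays, those whose log2 levels followed miR-214-3p most closely over the 6 arrays were miR-575 (Pearson r = 0.9755), miR-1303 (0.954) and miR-4259 (0.949). These are the highest correlations of all those miRNAs, over 6 arrays that were normalized together and may share slides, and they are given as a description. Their log2 differences between the groups were -0.0034, 0.0070 and -0.072. A high correlation with miR-214-3p, whose groups were nearly equal, already limits these differences relative to the spread of each miRNA. miR-1303 was only 2.37 to 3.06 units above the blank mean, within the 2.19 to 4.07 units of miR-199b-5p.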
